A study of Caenorhabditis elegans with 2 samples.

Results

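The genes described here encode thick and thin filament proteins of the nematode body wall muscle, and number 10 of 19973 protein-coding genes on the 6 nuclear chromosomes of Caenorhabditis elegans. They were taken by name and role, with earlier results of these data known. The genes are the myosin heavy chain genes unc-54 and myo-3, the paramyosin gene unc-15, the giant kinase genes unc-22 and unc-89, the myosin chaperone gene unc-45, the tropomyosin gene lev-11, and the troponin genes mup-2, unc-27 and pat-10. The measurement was chromatin immunoprecipitation with sequencing (ChIP-seq) of eGFP-tagged ALY-2 in whole L1 larvae of pooled sex. The strain was OP217, with the genotype unc-119(ed3) III; ddIs172, where the insertion carries the tagged gene. Both biological replicates form 1 group, with no other condition. Which cells make the tagged protein is not stated in the labels, and a whole larva holds many tissues besides muscle.

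In the sarcomere, thick filaments of myosin and paramyosin slide along thin filaments of actin, and calcium acts on troponin and tropomyosin to let myosin bind. The nematode body wall muscle is a long-standing model of this assembly, since many of its genes were found through paralysed or uncoordinated mutants. ALY proteins bind messenger RNA and help to export it from the nucleus. The comparisons ask where along these genes the tagged protein was recovered and how that stands beside other coding genes.

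Peaks were read from the authors' lists on the ce11 build, and coordinates count from 1. The final list held 1446 peaks, thresholded by the authors on the irreproducible discovery rate, and the pooled list, called over both replicates together, held 15675. The final peaks were the pooled peaks of highest signal. The lists of replicates 1 and 2 held 26798 and 25463 peaks. Each peak has a summit and the authors' signal value, whose scale is not given, so values are compared only within a list, by size or by rank from the highest. Read depth is unknown, and the longer lists include background peaks. A gene's promoter window covered 1000 bp before and 200 bp after its 5′ end, its 3′ end window 200 bp before and 500 bp past its 3′ end, and its body the gene from end to end.

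More of the filament genes had a pooled ALY-2 summit in the body or the 3′ end window than in the promoter window. None had a final summit in its promoter window. The windows differ in length, so counts are not comparable between them per base. In the pooled list, 8 of 10 genes had a summit in the 3′ end window, against 19.0% of all protein-coding genes, and 7 of 10 had one in the body, against 25.1%. In the promoter window 4 of 10 had one, against 24.9%. In the final list 2 of 10 had a 3′ end summit, against 3.15% of coding genes, 2 of 10 a body summit, against 2.32%, and 0 of 10 a promoter summit, against 5.58%. Any of the 3 windows held a final summit for unc-54, unc-89 and unc-45, or 3 of 10 genes against 9.10%, and a pooled summit for 9 of 10 against 43.9%. The exception was unc-27, which encodes troponin I and had no summit in any window of any of the 4 lists. With 10 genes, 1 gene moves each of these shares by 10 percentage points. Most of the pooled peaks behind these counts were weak: among those with a −log10 q of at least 2, the counts were 0 for the promoter, 3 for the body and 2 for the 3′ end. Leaving out 3′ end summits that lie inside another annotated gene, a choice made after seeing the data, gave 5 of 10. Both final 3′ end summits, those of unc-54 and unc-45, were among those left out. No share of all coding genes was computed with that choice.

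**Figure D1:**
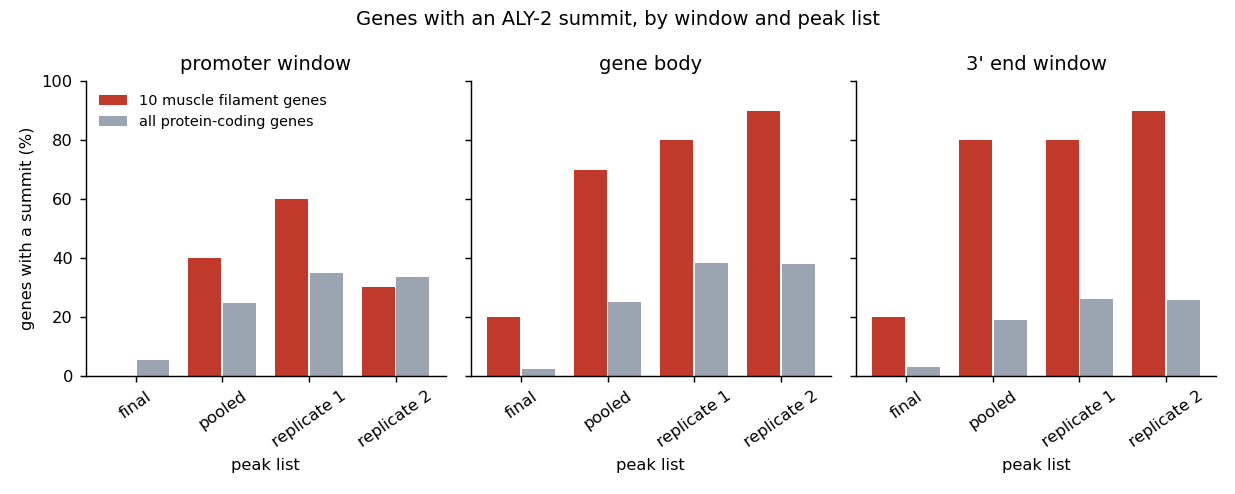
Share of genes with a summit (y axis, percent) in each window and peak list (x axis), for the 10 filament genes and for all protein-coding genes. The bars of the filament genes are taller for the body and the 3′ end, where the pooled list gives 7 and 8 of 10 genes. In the promoter window they are taller in the pooled list and replicate 1, with 4 and 6 of 10 genes. There the final list gives 0 of 10 and replicate 2 gives 3 of 10 genes, below all coding genes.

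The counts differed little between the replicates at the 3′ end and more at the promoter. At the 3′ end, replicate 1 gave 8 of 10 genes, against 26.1% of coding genes, and replicate 2 gave 9 of 10, against 25.9%. In the body the counts were 8 of 10 against 38.2% and 9 of 10 against 38.1%, not matched for gene length. In the promoter window they were 6 of 10 against 34.9% and 3 of 10 against 33.7%, so the second replicate stood at about the level of all coding genes. Both replicates are of 1 group, and the design holds no comparison to test.

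Several filament genes are long, and long coding genes more often held a body summit. Of the 7 filament genes of at least 5 kb, 6 had a pooled body summit, against 60.7% of the 3233 coding genes of that length. In the final list 2 of 7 had one, against 6.34%. In replicates 1 and 2 all 7 had one, against 79.3% and 78.6%. Per length, the bodies of the 10 genes held 5.54 pooled summits per 10 kb, against 1.46 for all coding genes and 1.75 for those of at least 5 kb. Without unc-54 the density was 4.96. Replicate 1 gave 7.25 summits per 10 kb against 2.62 for all coding genes, and replicate 2 gave 6.11 against 2.44. For coding genes of at least 5 kb the replicate densities were 3.08 and 2.79.

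The sequences under the strongest 3′ end and promoter summits of 3 genes are printed as examples. Each is 151 bases of the ce11 reference, 5′ to 3′ on the gene's strand, from the RefSeq assembly, with the 11 bases centred on the summit in capitals. The first and the last are promoters, at chrIII:491315-491465 on the plus strand and chrIV:12011181-12011331 on the minus strand. The others lie past the 3′ ends of unc-45 and myo-3, at chrIII:502742-502892 on the plus strand and chrV:12226625-12226775 on the minus strand.
unc-45 promoter summit: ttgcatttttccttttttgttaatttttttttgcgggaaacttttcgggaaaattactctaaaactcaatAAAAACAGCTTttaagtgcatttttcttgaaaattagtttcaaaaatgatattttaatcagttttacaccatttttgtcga
unc-45 3′ end summit: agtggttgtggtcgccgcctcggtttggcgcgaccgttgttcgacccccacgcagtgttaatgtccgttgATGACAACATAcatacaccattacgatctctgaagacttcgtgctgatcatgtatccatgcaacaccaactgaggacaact
myo-3 3′ end summit: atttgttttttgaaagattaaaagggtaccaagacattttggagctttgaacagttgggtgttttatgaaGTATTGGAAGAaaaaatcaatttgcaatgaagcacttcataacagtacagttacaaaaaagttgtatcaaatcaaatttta
unc-22 promoter summit: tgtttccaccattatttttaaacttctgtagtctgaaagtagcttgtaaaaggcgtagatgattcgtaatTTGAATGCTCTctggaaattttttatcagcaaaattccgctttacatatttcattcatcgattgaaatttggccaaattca
Both promoter sequences and the myo-3 sequence hold a run of 6 or more A or T, with a GC share of 25.2%, 31.8% and 28.5%. Around body summits of coding genes of at least 5 kb, the median GC share over 201 bp was 35.3%. How often other summits hold such a run was not counted. The unc-45 3′ end sequence stands apart with 51.0% GC and no such run. It covers a small nucleolar RNA (snoRNA) gene, described with unc-45 below.

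Among the thick filament genes, unc-54 stood out. It encodes the major myosin heavy chain of body wall muscle (WBGene00006789, chromosome I from 14855901 to 14863482, minus strand). Its strongest summit, at 14855816, lay 85 bp past the 3′ end with a signal of 177 and rank 34 of the pooled list. The peak ranked 14 in replicate 1, with a signal of 106, and 59 in replicate 2, with 80.2. Among the 3795 coding genes with a pooled summit at the 3′ end, this was place 22. The next gene, aex-5, which encodes a kexin-like protease, begins 73 bp past unc-54 on the same strand, and the pooled summit lay 11 bp inside it, in its first exon. The replicate 2 summit also lay inside aex-5, whereas that of replicate 1 lay 62 bp past unc-54, in the gap between the genes. The peak thus belongs to the end of unc-54 and to the promoter window of aex-5 alike, and the lists cannot tell them apart.

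The unc-54 body held 12 pooled summits, 5 of them final. No coding gene had more than 5 final summits in its body, a number reached by 0.0150% of them, namely unc-54, mnk-1 and vab-10. Of these 3, unc-54 is the shortest, at 7582 bp against 12624 for mnk-1 and 57568 for vab-10. It was not the densest, with 6.59 final summits per 10 kb. The genes icl-1, W06H8.6 and chc-1, with 4 final body summits each, held 10.9, 6.94 and 6.80 per 10 kb. The final body summits lay 1167, 2719, 4006, 4226 and 4999 bp from the 5′ end. Their pooled signals were 48.3, 54.7, 52.0, 59.2 and 64.0. In replicate 1 the nearest overlapping peaks ranked 718, 758, 252, 252 and 292, the pair at 252 being a single peak. In replicate 2 they ranked 1234, 1389, 9199, 1496 and 660. All 5 overlapped peaks of both replicates, which is no independent evidence for peaks thresholded on the irreproducible discovery rate. The peak at rank 9199 lay nearest to the summit at 4006 bp, and the replicate 2 peak at rank 1496 overlapped that summit's peak as well. The only promoter summit of unc-54, 481 bp upstream, had a signal of 22.4 and rank 6553, and no replicate 2 peak overlapped it.

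The second myosin gene, myo-3, encodes the minor heavy chain that lies at the centre of the thick filament (WBGene00003515, chromosome V from 12226817 to 12234343, minus strand). It is nearly as long as unc-54, at 7527 bp, and had 5 pooled summits, none of them final. The strongest, printed above, lay 117 bp past the 3′ end, with a signal of 39.6 and rank 1688, and ranks of 1214 in replicate 1 and 2928 in replicate 2. The 4 body summits lay from 5354 to 7442 bp from the 5′ end, with signals from 16.2 to 22.7. No pooled summit lay in the first 5 kb of the gene or in its promoter window. Pooled body density was 5.31 per 10 kb in myo-3 and 15.8 in unc-54.

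The paramyosin gene unc-15 (WBGene00006754, chromosome I from 7376604 to 7383197, minus strand) encodes the core protein of the thick filament. It had 7 pooled summits and no final one, but its strongest, with a signal of 42.4, ranked 1457, which is 11 places below the end of the final list. The last final peak had a signal of 42.7. This unc-15 summit lay 412 bp before the annotated 3′ end of the gene, in a UTR, and ranked 2558 in replicate 1 and 1139 in replicate 2. The gene's annotated transcripts end at different places, and this summit was 279 bp past the nearest transcript end. Another summit lay 229 bp past the gene's 3′ end, with a signal of 38.1 and rank 1837, and a weak one 30 bp past it with 17.4. No pooled summit of unc-15 lay in coding sequence, where replicate 1 alone listed a weak one, with a signal of 6.57 and rank 24190. In the pooled list, 3 body summits with signals of 29.2, 29.8 and 31.2 lay in introns 1080 to 2333 bp from the 5′ end.

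**Figure D2:**
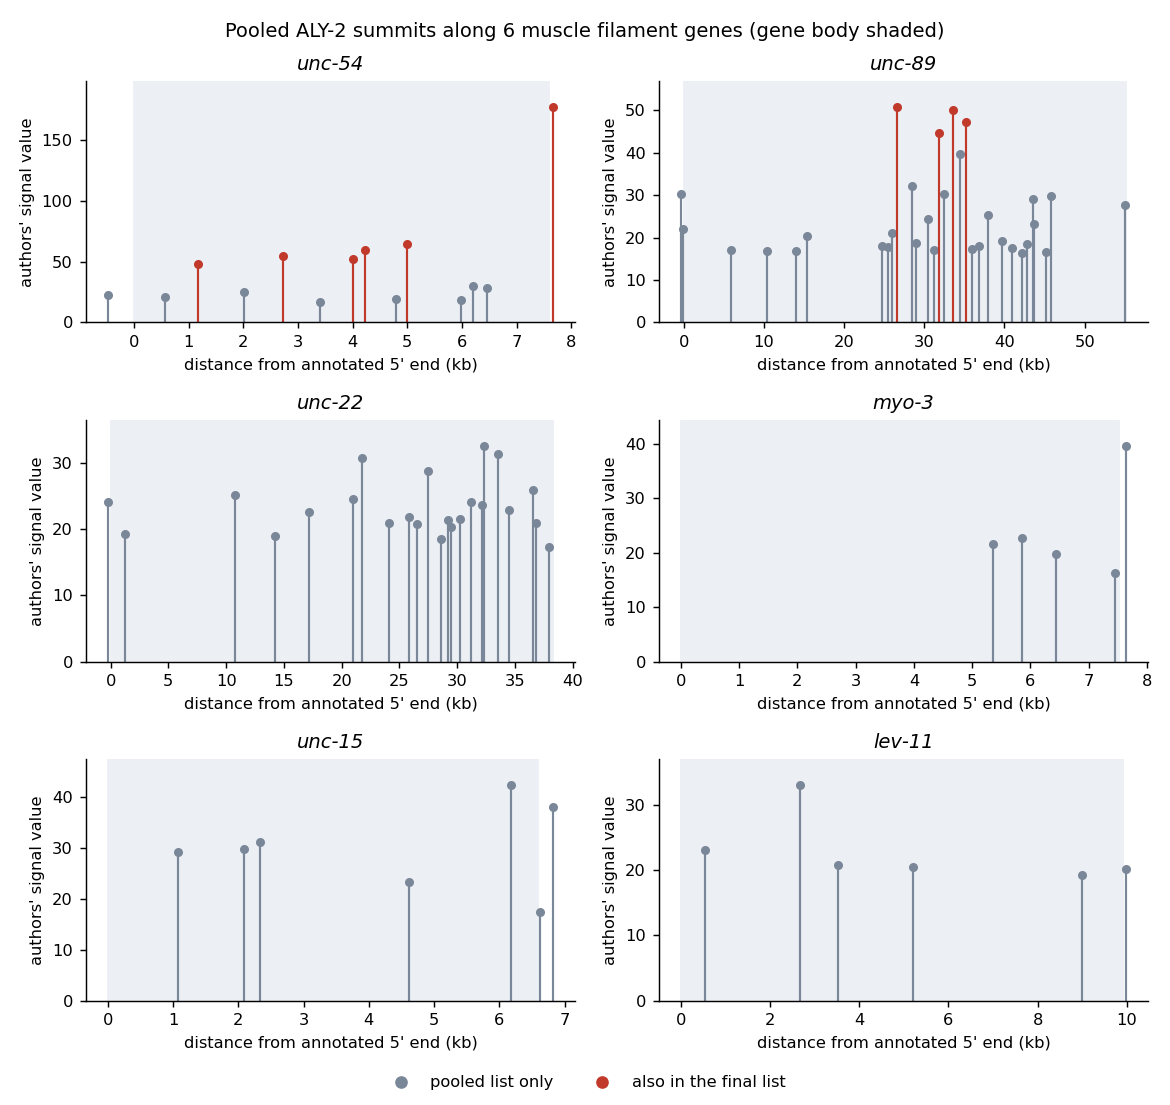
Pooled summits along 6 filament genes. The x axis is the distance from the annotated 5′ end in kb, the y axis the authors' signal value (its range differs between panels), the gene body is shaded, and red points are also in the final list. The unc-54 summit of 177 lies just past the 3′ end, 5 red points lie inside that gene, and the summits of unc-89, unc-22 and myo-3 leave much of the 5′ part of each gene empty.

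The giant genes unc-89 and unc-22, the longest of the 10, carried the most summits, unevenly placed along the gene. Per 10 kb of body they held 5.26 and 5.74 pooled summits, near the 5.54 of all 10 genes. The gene unc-89 encodes the obscurin homologue of the M-line, where thick filaments are cross-linked (WBGene00006820, chromosome I from 4035702 to 4090885, plus strand). Its 55184 bp held 29 pooled body summits, 24 of them between 24763 and 45807 bp from the 5′ end. The 4 final ones lay at 26569, 31795, 33561 and 35207 bp, with signals of 50.8, 44.6, 49.97 and 47.3. Their ranks were 1001, 1848, 611 and 1726 in replicate 1 and 1211, 1353, 1769 and 1337 in replicate 2. As final peaks they were thresholded on the irreproducible discovery rate, so high ranks in both lists are no independent evidence. Having at least 4 final body summits was a property of 0.0501% of coding genes, not matched for length. Among those genes unc-89 had the lowest density, 0.725 final summits per 10 kb. A lectin gene, clec-89, lies within unc-89, and 1 of the weaker summits was inside it. A snoRNA gene, C24G7.6, also lies within the body.

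Weaker unc-89 summits lay near ends of its 16 annotated transcripts. A summit with a signal of 29.7 lay 2 bp downstream of an internal transcript 5′ end, and 3 of the 29 body summits in all fell in the promoter window of a transcript. Another 3 fell in the 3′ end window of a transcript, among them that of signal 27.6 located 98 bp before the end of the gene. The promoter of the gene held a pair of summits 349 and 144 bp upstream, with signals of 30.3 and 22.1. The stronger ranked 3060 in the pooled list, 3890 in replicate 1 and 7225 in replicate 2, and a single replicate 2 peak overlapped both.

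The gene unc-22 encodes twitchin, a titin-like kinase of the thick filament (WBGene00006759, chromosome IV from 11972697 to 12011007, minus strand). Its 38311 bp held 22 pooled body summits, 18 of them in the last 50% of the gene, and no final one. The strongest, 32337 bp from the 5′ end, had a signal of 32.5 and rank 2636, with ranks of 2639 in replicate 1 and 6772 in replicate 2 for the nearest peaks, and a stronger replicate 1 peak at rank 1403 also overlapping. The next, at 33520 and 21768 bp, had signals of 31.3 and 30.7, and the median rank of all 23 summits was 6428. The promoter summit printed above, 249 bp upstream, had a signal of 24.1, and ranked 6724 in replicate 1 and 7533 in replicate 2. It also fell in the window of ZK617.26, a coding record of a few codons inside unc-22. At the 3′ end unc-22 had no pooled summit, and only replicate 2 listed a peak there, with a signal of 12.3. Of its 9 transcripts some start inside the gene, and 2 body summits lay in the promoter windows of these.

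When each body of at least 5 kb was divided into 3 equal parts, the first part held the smallest share of the pooled summits of the 7 long filament genes, while in the final list the last part did. The first part held 13 of 77 pooled summits (16.9%), the middle part 28 (36.4%) and the last 36 (46.8%). Over all coding genes of that length the parts held 27.5%, 31.6% and 40.9% of 5544. In the final list the filament genes had 1, 8 and 0 of 9 summits, where all long genes gave 27.6%, 27.2% and 45.1% of 268. In replicate 1 the filament genes gave 24.8%, 35.6% and 39.6%, and in replicate 2 they gave 23.8%, 36.9% and 39.3%, where all long genes gave 29.2%, 32.4% and 38.4%, and 29.7%, 31.9% and 38.3%. The pattern rests largely on unc-22 and unc-89. Without them the shares were 26.9%, 34.6% and 38.5% of 26 summits. In unc-22 the density rose from 1.57 per 10 kb in the first part to 3.92 and 11.7, and the share of coding sequence rose from 17.3% to 66.6% and 88.8%. In unc-89 the densities were 2.17, 7.61 and 5.98, and the coding shares 20.7%, 80.2% and 36.95%. The part of coding sequence in this placement was not tested.

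**Figure D3:**
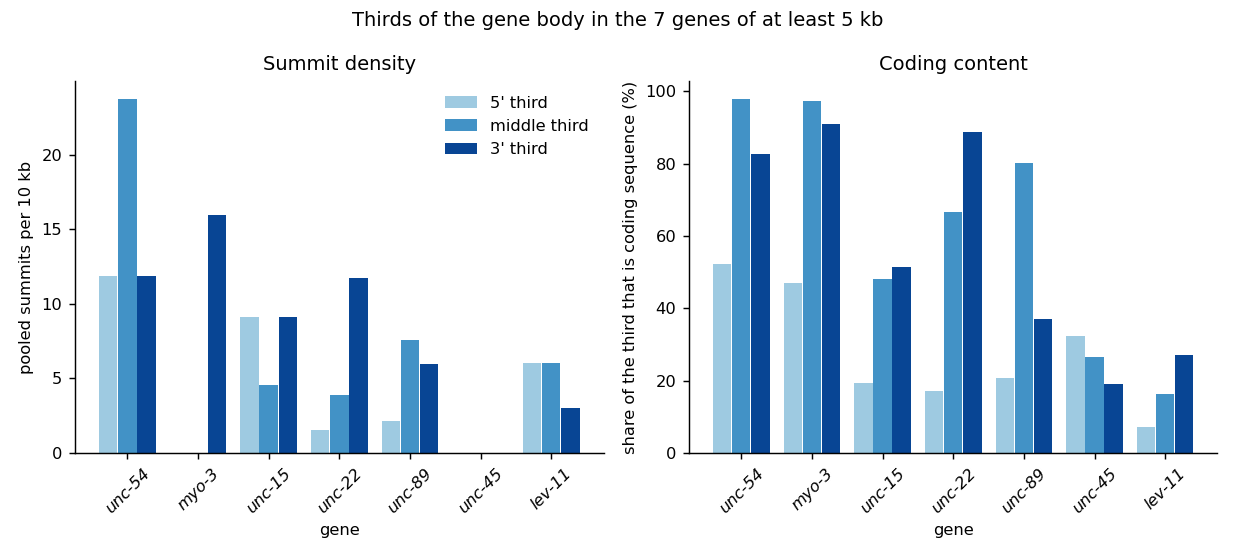
Each body of the 7 filament genes of at least 5 kb in 3 equal parts (light, middle and dark blue from 5′ to 3′). The left panel gives pooled summits per 10 kb and the right panel the percent of the part that is coding sequence; in unc-22 both rise from the 5′ to the 3′ part, in myo-3 summits lie in the 3′ part alone, and unc-45 has none.

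Body summits of the filament genes lay in coding sequence in 47 of 78 cases (60.3%), where coding sequence makes up 48.9% of the bodies. Over all coding genes of at least 5 kb the share was 22.4% of 5503 summits, where coding sequence makes up 29.1%. A summit inside overlapping long genes was counted once here and once for each gene in the division into 3 parts, which gave 5544. Of the 9 final body summits of the filament genes, 7 lay in coding sequence. By gene, the count stood beside the coding share of the body as follows. In unc-54 it was 10 of 12 where 77.7% of the body is coding, and in myo-3 it was 3 of 4 where 78.5% is. In unc-22 it was 17 of 22 with 57.6% coding, and in unc-89 it was 16 of 29 with 45.9%. In unc-15 it was 0 of 5 with 39.7% coding, and in lev-11 it was 0 of 5 with 16.9%. With so few summits a gene, the counts of unc-54, myo-3 and lev-11 lay near what their coding share gives. The 201 bp around the body summits had a median GC share of 42.8%, against 39.3% over the bodies, while at summits in all long genes it was 35.3% against 35.8%. Neighbouring summits of a gene share its sequence and are not independent.

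The myosin chaperone gene unc-45 showed another pattern, with pooled summits at both ends and none inside. UNC-45 folds the myosin head and helps it to assemble (WBGene00006781, chromosome III from 491547 to 502625, plus strand). Its 3′ summit, at 502817, lay 192 bp past the end with a signal of 69.4 and rank 487, in the final list. It ranked 1085 in replicate 1 and 340 in replicate 2. The summit lay inside the snoRNA gene F30H5.4, from 502804 to 502889 on the same strand, 13 bp from its 5′ end. The replicate 2 summit was at the same base, whereas that of replicate 1 lay 134 bp past unc-45, before the start of the snoRNA gene. In the sequence printed above, the word TGATGA, the core of box C of many snoRNAs, begins 7 bp before the summit, and CTGA, the word of box D, begins 64 bp past it. Both words in that order, on either strand, occurred in 3.09% of 151-base windows at the 15675 pooled summits. Recovery at the end of unc-45 and at the snoRNA cannot be told apart from peak lists. The unc-45 promoter summit, 157 bp upstream, had a signal of 32.2 and rank 2685, the highest in the promoter window of any of the 10 genes. It ranked 7025 in replicate 1 and 2245 in replicate 2. As a scale, the nearest promoter signals among other coding genes were those of acd-3 above it and C09E9.1 below it, both also 32.2 to 32.3. Among the 4979 coding genes with a pooled promoter summit, unc-45 took place 1717. In the body, which held no pooled summit, replicate 1 listed 3 summits with signals of at most 7.30 and replicate 2 listed 1 with 13.4.

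The thin filament genes carried weak peaks, and none was final. The tropomyosin gene lev-11 (WBGene00002978, chromosome I from 14621169 to 14631094, minus strand) makes the coiled-coil protein that covers the myosin sites on actin. It had 6 pooled summits, 5 of them in introns of the body. The strongest, 2680 bp from the 5′ end, had a signal of 33.1 and rank 2535. It ranked 2473 in replicate 2. In replicate 1 a pair of peaks overlapped it, the nearest at rank 16939 and the stronger at rank 4549. A summit 63 bp past the 3′ end had a signal of 20.2 and also lay in the promoter window of Y105E8B.11. Only 3 of the 6 summits were found in both replicates. A body summit of signal 20.5 lay 439 bp upstream of a transcript that starts inside the gene.

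The troponin genes are short and stood lowest. The troponin C gene pat-10, whose product binds the calcium (WBGene00003934, chromosome I from 5018783 to 5020358, minus strand), had a summit 214 bp past the 3′ end, with a signal of 23.04 and rank 6063. It ranked 4504 in replicate 2. In replicate 1 a pair of peaks overlapped it, the nearest at rank 22106 and the stronger at rank 11418. A second summit, in coding sequence, had a signal of 20.3. The troponin T gene mup-2, whose product ties troponin to tropomyosin (WBGene00003495, chromosome X from 6408471 to 6410227, minus strand), had a single summit 212 bp past the 3′ end. Its signal of 17.2 and rank of 13290 put it among the weakest pooled peaks, with ranks of 20988 and 11494 in the replicates. It lay within glt-4, a glutamate transporter gene that runs towards mup-2 from the other strand. The troponin I gene unc-27, whose product blocks contraction at rest (WBGene00006764, chromosome X from 8789456 to 8790621, plus strand), had none. At 1166 bp it is the shortest of the 10.

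**Figure D4:**
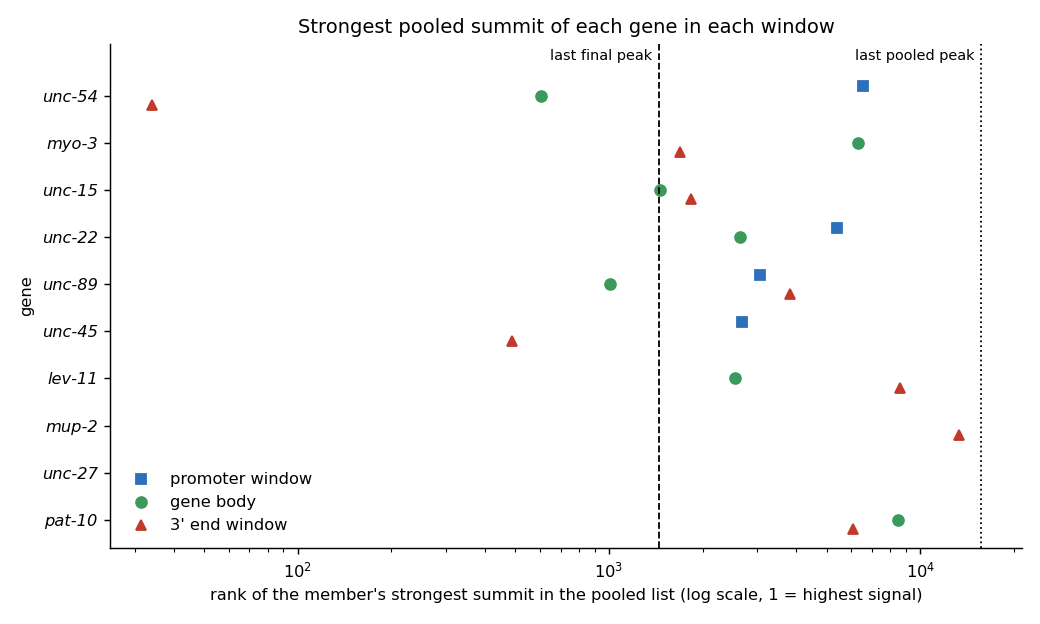
Rank of the strongest pooled summit of each gene in each window (x axis, log scale, with 1 the highest signal; y axis, gene). Dashed and dotted lines mark the last final peak (1446) and the last pooled peak (15675); the unc-54 3′ end summit at rank 34 lies far to the left, the promoter summits all lie right of the dashed line, and unc-27 has no point.

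In all, the 10 genes held 91 pooled summits, of which 11 (12.1%) were final and 80 were not. Over all pooled peaks 9.22% were final. Signals ranged from 16.2 to 177, with a median of 22.8, where the median of all pooled peaks was 20.95. The upper 50% of the pooled list by signal held 56 of the 91 (61.5%). Of the 10 summits in 3′ end windows, 8 lay past the annotated end, 30 to 229 bp beyond it. The window covers 200 bp before the end and 500 bp past it, so most of it lies past the end. No such share over all coding genes is set beside this count.

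Most member summits were overlapped by a peak in each replicate. The pooled list was called over the same replicates, so this overlap is no independent evidence. A replicate peak overlapped 79 of the 91 in replicate 1 and 81 in replicate 2, and 69 (75.8%) were overlapped in both, against 65.9% of all 15675 pooled peaks. Below the final list the share was 58 of 80 (72.5%), against 62.4% of 14229. Replicate summits were denser in the filament gene bodies, at 7.25 and 6.11 per 10 kb against 2.62 and 2.44 over all coding genes. Overlap is easier where peaks are dense, so these shares do not compare reproducibility. Close summits can be overlapped by the same replicate peak, so these 69 are not separate events. The share was 10 of 14 for unc-54, 23 of 31 for unc-89, 18 of 23 for unc-22, 6 of 7 for unc-15 and 4 of 5 for myo-3. Over the 69, the larger distance of the 2 replicate summits from the pooled summit had a median of 75 bp, and in 27 cases both were within 50 bp.

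**Figure D5:**
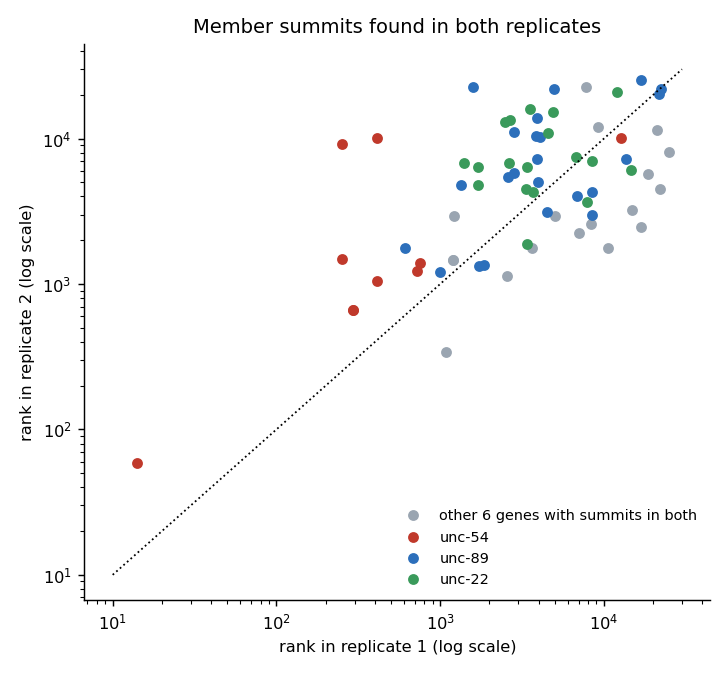
Ranks of the nearest overlapping peaks of the 69 member summits found in both replicates, in replicate 1 (x axis) and replicate 2 (y axis), both on log scales; the dotted line marks equal rank. The unc-54 3′ end summit lies at 14 and 59, most others lie beyond rank 1000 in both, and several unc-54 summits rank higher in replicate 1 than in replicate 2.

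The E-box, written CANNTG, is the word that myogenic bHLH factors such as HLH-1 bind. In a 300 bp stretch with 250 bp before the 5′ end and 49 bp after it, the word occurred in 5 of 10 filament genes, namely unc-54, myo-3, unc-22, lev-11 and unc-27, and in 69.4% of all coding genes. The word CAGCTG, which is an E-box as well, occurred in 0 of 10 and in 5.55% of all coding genes. Each word reads as itself on both strands.

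Other genes of the muscle were described from 6 lists. Of 15 other sarcomere motor and troponin genes, 4 (26.7%) had a pooled summit in the promoter window, 5 (33.3%) in the body and 6 (40%) at the 3′ end. Over all coding genes these shares were 24.9%, 25.1% and 19.0%, so the promoter count stood near the background. Among these the myosin light chain gene mlc-3 had the highest promoter signal, 33.7, ahead of the titin gene ttn-1 with 22.6 and the troponin I gene tni-1 with 18.3. A final summit was seen in the mlc-3 body and in no other window of this list. Of 7 genes for thin filament regulators, 4 (57.1%) had a pooled promoter summit, 4 (57.1%) a body summit and 2 (28.6%) a 3′ end summit, beside the same shares over all coding genes. In this list the capping protein gene cap-2 had a final promoter summit of signal 133 shared with gmps-1. The cofilin gene unc-60 followed with 36.2, at a summit shared with F53E2.2, and then unc-87 with 27.3.

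Genes of the structures that attach the filaments to the membrane showed final peaks at 3′ ends. Of these 21 genes, 14 (66.7%) had a pooled summit at the 3′ end, 15 (71.4%) in the body and 7 (33.3%) in the promoter window, against 19.0%, 25.1% and 24.9% of all coding genes. Of the 15 that are at least 5 kb long, 11 had a body summit, against 60.7% of coding genes of that length. Final 3′ end summits were seen in 5, against 3.15% of all coding genes. These were the vinculin gene deb-1, the integrin-linked kinase gene pat-4, the parvin gene pat-6, the talin gene tln-1 and unc-23. Whether another gene shares the 3′ end summits of the 6 lists was not examined. In the promoter window the kindlin gene unc-112 had a final summit of 43.6, and unc-23 and the PINCH gene unc-97 pooled ones of 34.1 and 23.7. Of 13 genes for excitation and calcium handling, 3 (23.1%) had a pooled promoter summit, 8 (61.5%) a body summit and 8 (61.5%) a 3′ end summit, the first near the 24.9% of all coding genes. Of the 8 that are at least 5 kb long, 6 had a body summit, where 60.7% of coding genes of that length had one. Only the calcium pump gene sca-1 had a final summit, in the body and at the 3′ end. The promoter signals were 21.7 for sca-1, 17.1 for stn-1 and 16.5 for the ryanodine receptor gene unc-68. Of the 3 genes for myogenic factors, hlh-1, unc-120 and hnd-1, none had a promoter summit, and unc-120 had a pooled summit in the body and at the 3′ end.

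Of 7 genes for partners of UNC-45 in folding and turnover, 6 had a pooled promoter summit and 3 a final one, against 24.9% and 5.58% of all coding genes. These were cdc-48.1, a p97 ATPase gene, with the highest signal of the list, 515, the Hsp70 gene hsp-1 with 125, and the co-chaperone gene sti-1 with 59.9. At the 3′ end 4 of the 7 had a final summit and 6 a pooled one, against 3.15% and 19.0% of all coding genes. In the body 3 had a final summit and 5 a pooled one, against 2.32% and 25.1%. The Hsp90 gene hsp-90 had final summits in the body and at the 3′ end and a pooled but no final one in the promoter window. This list was drawn up with strong peaks at cdc-48.1 and hsp-1 already known, so its counts are no independent evidence.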

How the data were processed

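Peaks of eGFP-tagged ALY-2 were measured by ChIP-seq in 2 biological replicates of L1 larvae, with libraries of 150 to 350 bp per the labels. Per the deposited description files, the authors made a peak list from each replicate's alignment and 1 from both together, each with a further file of unstated content, and thresholded a final list on the irreproducible discovery rate. The signal of each peak and its −log10 q-value are the authors' deposited values, and served to rank, filter and describe peaks of the same list. Aligner, peak caller, threshold, depth and the treatment of reads that match several places were not given in the sources used here, so precision is unknown and no interval was computed. Lists on ce10 were not used here.

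Summits were set against Ensembl release 115 genes on WBcel235, the assembly of ce11, with Python 3.11.15, pandas 2.3.3 and numpy 2.4.6. Sequence came from the RefSeq assembly. The counting of summits in windows was tested on simulated data. The 10 genes and the 6 comparison lists were chosen with earlier results of these data known. All 10 genes are named, with the up to 3 genes of highest pooled promoter signal in each comparison list, genes with a final summit where these are few, and genes that share a summit. With 1 group and 2 replicates no test was made, and counts stand beside those over all protein-coding genes. A summit was found in a replicate when the peaks overlapped by at least 1 bp. Other windows, overlaps, thresholds and single replicates were tried.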

Additional observations from a re-analysis of the deposited data

How the results depend on the processing

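No paired analysis was possible because the series holds 1 group. The pooled counts of genes with a summit were 4 of 10 for the promoter window, 7 for the body and 8 for the 3′ end. They stayed within 1.5 times of this with the upper 50% of peaks by signal, other windows and any overlap of the peak. The same held for every transcript's 5′ end and the nearest 5′ end alone. In the upper 50% the counts were 4, 6 and 6, where all coding genes gave 16.2%, 13.4% and 12.1%. Among peaks with a −log10 q of at least 2 the counts fell to 0, 3 and 2, where all coding genes gave 6.003%, 2.55% and 3.46%. The 3′ end count was 5 when summits inside another annotated gene were left out, a setting chosen after seeing the data. No share of all coding genes was computed for that setting. With 1 replicate left out, the other's list was cut to its 15675 peaks of highest signal. The promoter count was then 3 to 4 and the body count 7 each time. The 3′ end count was 6 to 9. All coding genes gave 24.2% to 24.5% for the promoter, 24.9% to 26.4% for the body and 18.0% to 18.9% for the 3′ end. The promoter count of 3 thus stood near the share of all coding genes. The density of 5.54 body summits per 10 kb was 3.27 in the upper 50% of peaks, 0.711 at a −log10 q of at least 2, and 4.76 to 5.40 with 1 replicate left out; fewer peaks enter the first pair of settings. The 69 summits found in both replicates were 40 when replicate summits had to lie within 100 bp. No share of all pooled peaks is set beside that count. With 1 replicate left out, 79 to 81 were overlapped by the other, a count that cannot fall below 69. Peak lists without depth cannot show whether a gene such as unc-27 had a signal below the callers' limit.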
